A study of Mus musculus with 12 samples.

Results

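Tight junction genes were followed in mouse embryonic fibroblasts during the first week of reprogramming. The members are Cldn1, Cldn3, Cldn4, Cldn6, Cldn7, Ocln, Tjp1, Tjp3 and Marveld2, found by their symbols, 1 row each, so 9 of the 24207 genes counted. Every dish held C57BL/6 fibroblasts with the lentiviral vectors FUW-M2rtTA and FUW-OSKM, through which doxycycline switches on Oct4, Sox2, Klf4 and Myc, and all were taken on day 7. There were 4 groups of 3 libraries: cells that were not induced and carried a scrambled short hairpin, doxycycline-induced cells with the scrambled hairpin (the induced controls), induced cells with a hairpin against Trim28, and induced cells with hairpins against both Trim28 and Setdb1. Trim28 (KAP1) represses the sites to which KRAB zinc finger proteins recruit it, and Setdb1, the enzyme it brings along, trimethylates lysine 9 of histone H3. The dishes also held irradiated feeder fibroblasts, and their share of the RNA is unknown. The libraries are bulk RNA, in which fewer cells of a type and less RNA per cell cannot be told apart.

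Tight junctions seal the space between neighbouring epithelial cells. Claudins are the 4-pass membrane proteins that form the sealing strands and set which ions pass. Occludin (Ocln) and tricellulin (Marveld2) are related membrane proteins with a MARVEL domain, tricellulin being placed where several cells meet, and the zonula occludens proteins, among them Tjp1 and Tjp3, are scaffolds that tie the strands to actin. Fibroblasts lack tight junctions but use Tjp1 at cadherin contacts. Cells on the way from fibroblast to pluripotent cell pass through a mesenchymal-to-epithelial transition, in which junction genes are switched on.

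Several members sit near a relative. Cldn4 (chr5:134945126-134946934, minus strand) and Cldn3 (chr5:134986214-134987472, plus strand) are 39.3 kb apart. Ocln (chr13:100496507-100552718) and Marveld2 (chr13:100595957-100616971) are both on the minus strand and 43.2 kb apart. Cldn6 (chr17:23679365-23682446, plus strand) ends 137 bases from Cldn9. The others are Cldn7 (chr11:69964779-69967885, plus strand), Cldn1 (chr16:26356642-26371841, minus strand), Tjp1 (chr7:65296165-65371239, minus strand) and Tjp3 (chr10:81273207-81291267, minus strand). Positions are those of the deposited table. They overlap the same genes in the GRCm38 annotation, which gives the strands.

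The 250 bases before the transcription start are shown for 6 members, since these 6 cover the kinds of behaviour described below: the neighbours Cldn3 and Cldn4, Cldn6 and Tjp3, whose changes with the hairpins were the largest, and Tjp1 and Cldn1, the members already read in uninduced cells. They come from RefSeq on GRCm38.p6, at chr5:134985964-134986213 for Cldn3, chr5:134946935-134947184 for Cldn4, chr17:23679115-23679364 for Cldn6, chr10:81291582-81291831 for Tjp3, chr7:65371245-65371494 for Tjp1 and chr16:26371840-26372089 for Cldn1, each written 5′ to 3′ on the strand of its gene. Capitals mark matches, on either strand, to CAGGTG (an E-box bound by the Snai and Zeb repressors), CCCCACCC (a site of Klf factors) and TGACTCA (a site of AP-1).
Cldn3: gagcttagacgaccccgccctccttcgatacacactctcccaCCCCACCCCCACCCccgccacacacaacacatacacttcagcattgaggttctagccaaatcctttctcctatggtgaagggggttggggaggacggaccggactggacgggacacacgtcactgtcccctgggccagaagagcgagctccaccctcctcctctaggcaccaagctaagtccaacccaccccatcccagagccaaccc
Cldn4: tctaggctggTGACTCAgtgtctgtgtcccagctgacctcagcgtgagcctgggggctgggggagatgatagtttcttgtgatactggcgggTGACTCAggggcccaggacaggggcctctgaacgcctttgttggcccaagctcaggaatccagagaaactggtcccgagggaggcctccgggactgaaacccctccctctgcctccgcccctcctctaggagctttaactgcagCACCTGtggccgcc
Cldn6: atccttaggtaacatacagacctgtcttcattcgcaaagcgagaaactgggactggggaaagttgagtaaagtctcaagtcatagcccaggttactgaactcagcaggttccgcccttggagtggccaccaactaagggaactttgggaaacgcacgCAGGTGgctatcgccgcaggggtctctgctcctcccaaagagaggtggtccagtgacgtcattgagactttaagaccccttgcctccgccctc
Tjp3: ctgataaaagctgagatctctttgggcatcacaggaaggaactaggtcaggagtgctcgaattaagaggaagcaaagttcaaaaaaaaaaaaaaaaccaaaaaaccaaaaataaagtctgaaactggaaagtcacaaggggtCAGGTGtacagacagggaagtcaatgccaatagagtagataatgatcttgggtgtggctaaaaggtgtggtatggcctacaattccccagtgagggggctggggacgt
Tjp1: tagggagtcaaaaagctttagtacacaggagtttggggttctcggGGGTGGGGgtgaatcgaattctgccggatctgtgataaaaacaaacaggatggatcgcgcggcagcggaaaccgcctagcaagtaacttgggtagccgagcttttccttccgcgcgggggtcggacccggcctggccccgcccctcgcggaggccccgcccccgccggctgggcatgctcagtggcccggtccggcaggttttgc
Cldn1: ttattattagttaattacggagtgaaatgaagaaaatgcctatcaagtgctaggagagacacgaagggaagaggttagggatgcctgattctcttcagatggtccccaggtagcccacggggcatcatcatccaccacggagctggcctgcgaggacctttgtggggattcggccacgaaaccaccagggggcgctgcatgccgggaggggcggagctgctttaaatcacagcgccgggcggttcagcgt

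All 9 members had a promoter in the table, 13 windows in all because some have a second start. Members are counted by a match in any of their windows, while the shares over all genes are per single window. The 2 measures are therefore unlike. The E-box was found before at least 1 start of 5 members (Cldn4, Cldn6, Cldn7, Ocln and Tjp3) and in 17.2% of the 32851 windows of all genes. In Cldn4 it lies 14 to 9 bases before the start, and in Tjp3 108 to 103 bases before the start shown. The other Tjp3 window, chr10:81291268-81291517, is the one that adjoins the gene position given above. There the E-box lies 17 to 12 bases before the start. CCCCACCC was found for Cldn3, where 2 matches share bases, for Cldn7 and for Tjp1, against 9.05% of all windows. TGACTCA occurred at 2 places before Cldn4 and before no other member, against 4.46% of all windows. Neither AACNNGTT, a core read by Grhl factors, nor the octamer ATGCAAAT, a site of Oct4, was in any member's window, and these are in 3.64% and 1.60% of all windows. The number of CG pairs ran from 2 in the Tjp3 window shown (7 in its other window) to 22 in that of Tjp1, with 14 in Cldn1 and a median of 6 over all windows. A match is a run of letters and says nothing of binding in these cells.

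The hairpins were checked on their targets. Trim28, at 286 to 362 CPM (counts per 1000000 counted reads) in the induced controls, was at 52.2 to 64.1 CPM with its own hairpin and at 95.6 to 107 CPM with both hairpins. Setdb1 was at 56.8 to 65.3 CPM in uninduced cells, 76.4 to 84.5 in the induced controls and 54.1 to 70.1 with both hairpins (log2 fold change from the induced controls -0.36 ± 0.086 SE, edgeR quasi-likelihood adjusted p = 0.00363), but at 121 to 124 CPM with the Trim28 hairpin alone. Trim28 RNA was 1.76-fold higher with both hairpins than with its own alone (log2 fold change 0.82 ± 0.10, adjusted p = 4.30e-05), so these groups differ in both targets. Libraries held 11906701 to 19191649 counted reads, and the shallowest was replicate 2 of the induced controls. Over the 5 markers of simple epithelium (Krt8, Krt18, Krt19, Cdh1 and Epcam) the summed level was 23.0 to 25.7 CPM in uninduced cells, 1534 to 1959 in induced controls, 1539.9 to 1771 with the Trim28 hairpin and 911 to 1127 with both. Over 10 fibroblast markers it was 23149 to 27156, 16121 to 23241, 12797 to 14384 and 16969 to 19702 CPM in the same order. Col1a1, Col1a2 and Col3a1 carried the fibroblast sum, at 9355, 8188 and 4499 CPM in uninduced cells. From uninduced cells to induced controls Dcn went from 128 to 232 CPM and Lum from 58.0 to 100.4 CPM, while the other fibroblast markers had lower means. No marker of these lists was at 0 in any group. Of 12 keratinocyte markers only Krt6b was at 0, in uninduced cells, and their sum was 12.4 to 15.4, 1794 to 2037, 1606 to 1808 and 1106 to 1372 CPM. In the induced controls Krt17, at 702 CPM, and Krt14, at 505 CPM, led this keratinocyte sum, and Krt5 was at 0.652 CPM. Krt15, Trp63 and Lor had a lower mean there than in uninduced cells, and the other keratinocyte markers a higher one. Pluripotency markers (7 of 10 at 0 in uninduced cells) summed to at most 0.647 CPM there and to 111 to 151, 97.7 to 109 and 43.8 to 68.9 CPM in the induced groups. The sum over 9 trophoblast markers was 3.79 to 4.47, 31.4 to 47.9, 16.2 to 18.9 and 8.18 to 14.1 CPM, with Tpbpa at 0 outside the Trim28 group and Elf5, Cdx2, Tfap2c and Hand1 at 0 in uninduced cells. Over 8 endothelial markers it was 12.3 to 13.2, 48.1 to 62.1, 70.1 to 74.7 and 46.7 to 54.2 CPM, with Cldn5 at 0 in uninduced cells and with both hairpins and Tie1 at 0 in uninduced cells. Over 6 liver and gut markers it was 2.12 to 3.02, 11.3 to 17.9, 7.55 to 11.6 and 6.47 to 8.82 CPM, with Fabp1 at 0 outside the Trim28 group and Cdx1 at 0 with either hairpin treatment. Single genes carried these last sums. In the induced controls Tek was at 46.6 of 54.5 CPM of the endothelial sum, and Vil1 at 13.6 of 15.6 CPM of the liver and gut sum. Kdr was lower after induction (3.99 to 1.44 CPM), and Alb and Afp had 2 and 3 reads in the induced controls. The 6 sums other than that of fibroblasts were higher in every induced library than in uninduced cells and had a lower mean with both hairpins than with the Trim28 hairpin alone or in the induced controls. The endothelial sum overlapped between both hairpins and the controls. Their part in the results was not tested. Epcam, Tfap2c and Trp63 stand both among these markers and in lists described below.

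Induction switched on 7 of the 9 members from near silence. In the 3 uninduced libraries together, 0 reads fell on Cldn6, 1 each on Cldn7 and Tjp3, 2 each on Cldn3 and Marveld2, 3 on Ocln and 7 on Cldn4, with totals of 16383264 to 16956211 reads in each library. Tjp1 was present before induction and rose, and Cldn1 was present before and did not pass the test. Over the 14520 genes tested 32.7% rose, 32.7% fell and 65.3% changed, and their median log2 fold change was -0.02. The other 7 members passed the filter on low counts through the induced groups alone, where they are high, so their being called is no separate evidence and their rise is given as values without a test. For Tjp1 every induced library lay above every uninduced one, as it did for 32.4% of all genes.

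**Figure D1:**
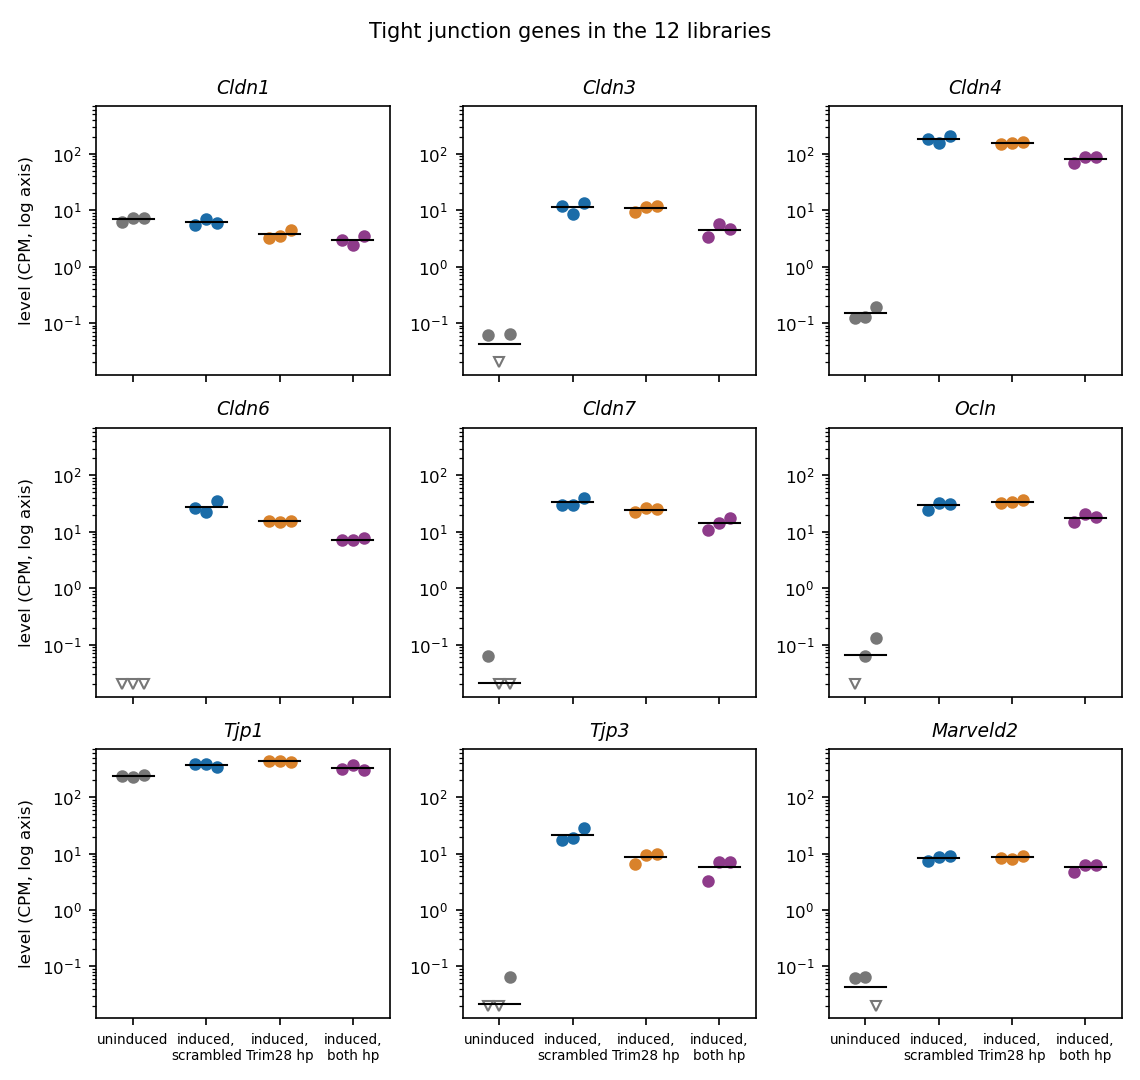
Level of each member in the 12 libraries, in CPM on a log axis, with replicates 1 to 3 from left to right in each group (hp, hairpin). Points are libraries, bars are group means, and open triangles at the foot are libraries with 0 reads. Tjp1 and Cldn1 are the panels whose uninduced points stand at their induced level or near it.

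Among the claudins, Cldn4, a sealing claudin and with Cldn3 a receptor of the Clostridium perfringens enterotoxin, reached the highest level. It was at 179.6, 157 and 208 CPM in replicates 1 to 3 of the induced controls, against 0.125, 0.129 and 0.194 CPM in uninduced cells (fitted log2 fold change 10.18 ± 0.62 SE). Cldn7, which binds Epcam, was at 30.3, 30.3 and 40.3 CPM, a count ratio of 1614 with a 95% counting interval of 289 to 63798. Cldn6, a claudin of early embryonic epithelia and pluripotent cells, was at 26.2, 22.6 and 35.2 CPM. With no read in uninduced cells, Cldn6 was at least 454-fold higher, against a floor of 3 reads over the group. Cldn3 was at 11.9, 8.51 and 13.4 CPM, a ratio of 274 (75.6 to 2272). All induced libraries lay above all uninduced ones for these 4 genes. As they passed the filter through the induced groups alone, this separation is no separate evidence. Cldn1, the claudin without which the epidermal barrier fails in the mouse, was at 6.06, 7.33 and 7.38 CPM before and 5.55, 7.05 and 5.81 CPM after induction, so the groups overlapped (log2 fold change -0.19 ± 0.16, adjusted p = 0.320).

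The MARVEL proteins started from 3 and 2 reads. Ocln was at 24.7, 32.8 and 31.8 CPM in the induced controls, a ratio of 464 (159 to 2254). Marveld2 was at 7.37, 8.67 and 9.16 CPM, a ratio of 198 (54.4 to 1639). The scaffold Tjp3 was at 17.1, 19.1 and 27.9 CPM after induction, with replicate 3 apart from the other two, and its ratio was 1033 (185 to 40841). Counting intervals cover counting error only. Tjp1 was at 241, 231 and 249 CPM in uninduced cells and 379, 391 and 339 CPM in induced controls, without overlap (log2 fold change 0.62 ± 0.078, adjusted p = 3.33e-06).

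Levels can be compared between genes only per length of transcript. In the induced controls Cldn4 was highest, at 86.7 to 114 CPM per kb of exon, followed by Tjp1 at 47.3 (43.4 to 50.1). Cldn7 at 17.3 and Cldn6 at 16.3 CPM per kb overlapped between libraries. Cldn3 at 8.96, Ocln at 7.06 and Tjp3 at 5.76 CPM per kb formed a run in which each overlapped the next. Marveld2 at 2.48 (2.18 to 2.71) and Cldn1 at 1.27 CPM per kb (1.15 to 1.46) stood lower and apart from each other. With both hairpins Tjp1, at 42.6 CPM per kb, overlapped Cldn4, at 45.0, and Cldn1 was lowest at 0.608.

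The mixture of claudins differed between uninduced and induced cells. Over 21 claudins the summed level was 11.5 to 12.5 CPM per kb in uninduced cells and 162 ± 21.6 (SD, n = 3) in induced controls. In uninduced cells Cldn12, a claudin outside the 9 members, made up 76.0% ± 2.21 of the sum and Cldn1 11.9% ± 0.949. In induced controls Cldn4 made up 61.8% ± 1.24, Cldn7 10.6%, Cldn6 9.98%, Cldn12 7.30% and Cldn1 0.799%. The Trim28 hairpin left a sum of 134 ± 7.14, and both hairpins one of 77.6 ± 9.29 CPM per kb, below every library of the other induced groups. With both hairpins the share of Cldn12 was 16.0% ± 1.65 and that of Cldn6 5.50% ± 0.638, while Cldn4 held 57.9% ± 0.813. Within the scaffolds, the log2 ratio of Tjp3 to Tjp1 was lower with the Trim28 hairpin (difference from the induced controls -1.53, two-sided exact permutation p = 0.1, the smallest that 3 against 3 allows) and with both hairpins (-1.78, exact permutation p = 0.1).

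**Figure D2:**
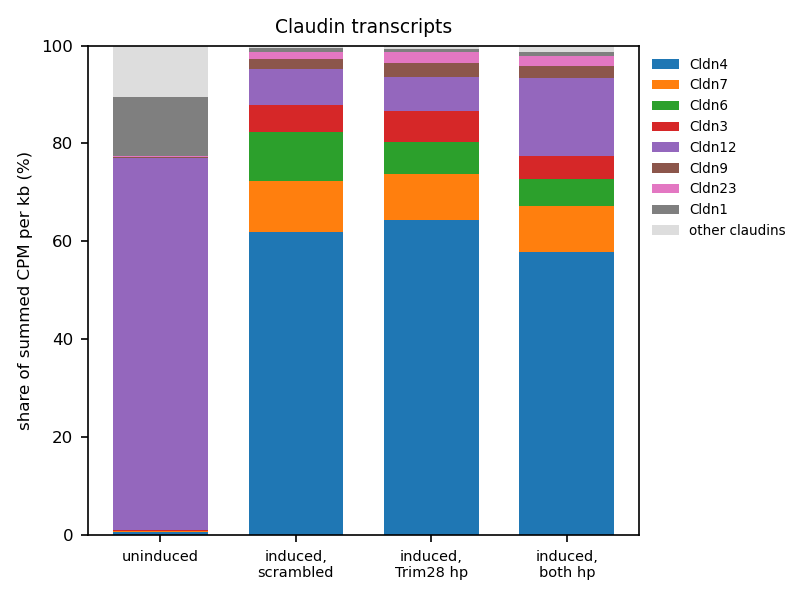
Share of each gene in the summed level per kb of exon of 21 claudins, as means of 3 libraries per group, in percent (hp, hairpin). Cldn12 holds 76.0% in uninduced cells and Cldn4 61.8% in the induced controls.

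The Trim28 hairpin lowered 4 members and raised none, and the 4 were not those of one class. Tjp3, Cldn6, Cldn1 and Cldn7 fell, while Cldn3, Cldn4, Ocln, Marveld2 and Tjp1 did not pass the test. Over all genes tested 24.9% changed, 13.1% rose and 11.8% fell. All 4 lay below every induced control library, as did 18.4% of all genes. The median change of the members was -0.21 on the log2 scale, against -0.00 for all genes.

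Tjp3 fell furthest. Tjp3 was at 6.54, 9.46 and 9.69 CPM with the Trim28 hairpin, all below the 17.1 CPM of the lowest induced control (log2 fold change -1.32 ± 0.23, adjusted p = 4.84e-04). Cldn6 was at 15.6, 14.7 and 15.6 CPM, again below all induced controls (-0.88 ± 0.14, adjusted p = 2.89e-04). Cldn1 was at 3.24, 3.55 and 4.49 CPM (-0.69 ± 0.17, adjusted p = 0.00729). It is the one member that did not rise with induction and yet was lower than in uninduced cells once the Trim28 hairpin was added (-0.87 ± 0.17, adjusted p = 2.51e-04). In that comparison with uninduced cells 34.1% of all genes rose, 32.6% fell and 66.6% changed. Cldn7 was at 22.5, 26.1 and 25 CPM, without overlap (-0.46 ± 0.15, adjusted p = 0.0297). This call rests on few libraries: leaving out induced control 3 ended it (adjusted p = 0.171), as did leaving out library 1, 2 or 3 of the Trim28 hairpin (0.107, 0.0545 and 0.0682).

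The other 5 were not called. Cldn4 was at 148, 157 and 165 CPM with the Trim28 hairpin, overlapping the controls (-0.21 ± 0.099, adjusted p = 0.133), and it passed only without replicate 2 of the induced controls (0.0182). Its neighbour Cldn3 was at 9.27, 11.6 and 11.7 CPM (-0.07 ± 0.18, adjusted p = 0.817). Ocln was at 32.5, 33.5 and 36.0 CPM (0.19 ± 0.12, adjusted p = 0.285), and Marveld2 at 8.25, 8.10 and 9.17 CPM (0.02 ± 0.14, adjusted p = 0.940). Both overlapped the controls. Tjp1 was at 429, 439 and 419 CPM, above every induced control, yet short of the threshold (0.21 ± 0.078, adjusted p = 0.0554). Tjp1 passed it in 4 of 14 alternatives, among them DESeq2 (0.0466), no filter (0.0314) and leaving out induced control 2 (0.0325).

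With both hairpins 8 of the 9 members fell and none rose, where 36.7% of all genes changed, 18.1% rose and 18.5% fell. The median change of the members was -1.16 on the log2 scale, against 0.00 for all genes. All 8 lay below every induced control library, as did 21.8% of all genes, and Tjp1 was the exception.

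Cldn6 was at 7.12, 7.05 and 7.65 CPM with both hairpins (log2 fold change -1.96 ± 0.15, adjusted p = 2.42e-07). Cldn3 was at 3.30, 5.64 and 4.62 CPM (-1.33 ± 0.20, adjusted p = 6.17e-05), and Cldn7 at 10.8, 14.5 and 17.5 CPM (-1.24 ± 0.15, adjusted p = 1.19e-05). Cldn4 was at 69.1, 88.0 and 87.8 CPM (-1.16 ± 0.10, adjusted p = 3.54e-07). Replicate 1 was the lowest of its group for Cldn3, Cldn4 and Cldn7, and it was so too for Ocln, Tjp3 and Marveld2. Cldn1 was at 3.00, 2.38 and 3.45 CPM (-1.05 ± 0.18, adjusted p = 2.36e-04). Among the scaffolds, Tjp3 was at 3.24, 7.05 and 7.19 CPM (-1.88 ± 0.24, adjusted p = 1.90e-05). The MARVEL proteins had the smallest falls among the 8. Ocln was at 15, 20.6 and 18.2 CPM (-0.73 ± 0.13, adjusted p = 3.82e-04) and Marveld2 at 4.77, 6.23 and 6.31 CPM (-0.54 ± 0.15, adjusted p = 0.00858). The call of Marveld2 was lost without replicate 1 of the double group (adjusted p = 0.0501). Tjp1 was at 319, 376 and 305 CPM and overlapped the controls (-0.15 ± 0.078, adjusted p = 0.145); without replicate 2 of the double group it passed (-0.25, adjusted p = 0.0150).

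Compared with uninduced cells, Tjp1 was still higher with both hairpins (0.47 ± 0.078, adjusted p = 8.22e-05), where 31.6% of all genes rose, 27.2% fell and 58.8% changed. Cldn4 still stood at a log2 fold change of 9.03 ± 0.62 and Cldn6 at least 114-fold higher. Cldn1 was lower than before induction (-1.23 ± 0.18, adjusted p = 1.48e-05).

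The direct comparison of both hairpins with the Trim28 hairpin alone is the test of the difference between them, and here 7 members fell, against 11.7% of all genes (10% rose and 21.7% changed). The largest falls were those of Cldn3 (-1.26 ± 0.20, adjusted p = 2.60e-04), Cldn6 (-1.07 ± 0.15, adjusted p = 2.37e-04), Cldn4 (-0.94 ± 0.10, adjusted p = 1.24e-05) and Ocln (-0.92 ± 0.13, adjusted p = 1.21e-04). Cldn7 fell by 0.78, Marveld2 by 0.56 and Tjp1 by 0.36 on the log2 scale. Marveld2 was lost without replicate 3 of the Trim28 group (adjusted p = 0.0597) and without replicate 1 of the double group (0.0700). The 2 members that did not pass were Cldn1 (-0.36 ± 0.19, adjusted p = 0.189) and Tjp3 (-0.55 ± 0.26, adjusted p = 0.140), which passed in 2 of 14 alternatives, one of them the fit with no filter (0.00211). Whether Tjp3 fell further with both hairpins thus depends on the fit. Cldn3, Cldn4, Ocln and Marveld2 changed with both hairpins against either group, and Cldn6 and Cldn7 changed in every knockdown comparison. The comparisons share groups, so that each set of values is given as its own.

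**Figure D3:**
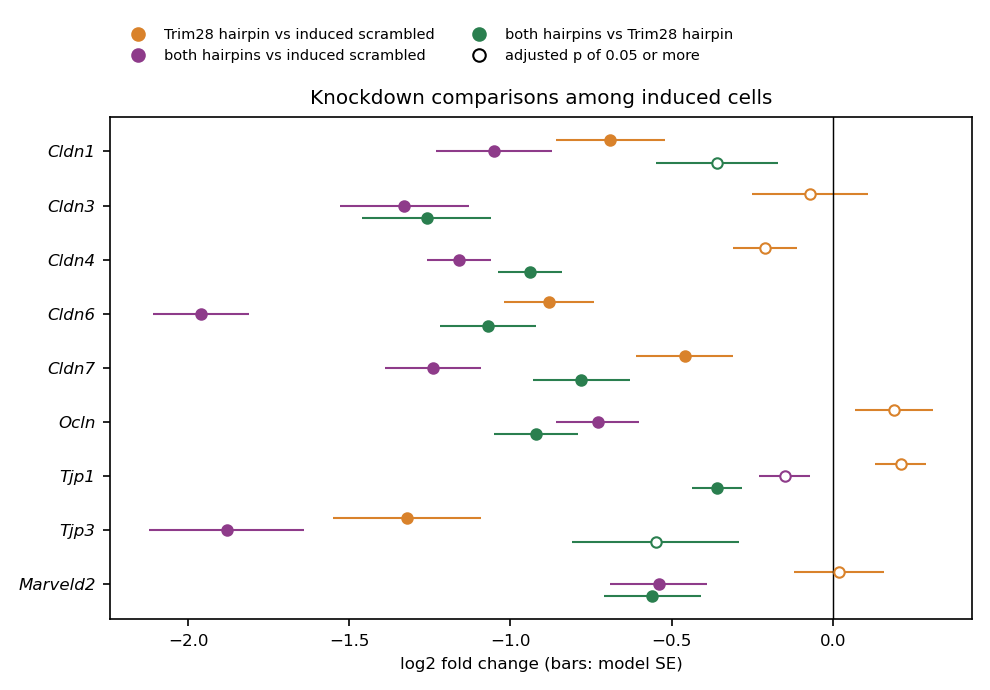
Log2 fold change of each member in 3 comparisons among induced cells, with bars of 1 model SE and 3 libraries per group. Filled points passed an adjusted p of 0.05 and open points did not. Tjp3 and Cldn6 reach -1.88 and -1.96 with both hairpins, and Tjp1 stays between -0.36 and 0.21 in all 3 comparisons.

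Because the epithelial markers fell too, each member was also set against their sum within each library, a ratio chosen after the values were known. The sum is carried by Krt8, at 1058 CPM in the induced controls, and Cdh1, at 343 CPM. Krt18, a smaller part of it, went from 52.0 to 16.7 CPM with both hairpins (log2 fold change -1.64 ± 0.13, adjusted p = 9.26e-08), further than Cldn3, Cldn4 or Cldn7, so the ratios of these 3 genes depend on which marker leads the sum. With both hairpins against the induced controls the difference of log2 ratios was -1.21 for Tjp3, -1.20 for Cldn6, -0.61 for Cldn3, -0.53 for Cldn7 and -0.43 for Cldn4, all without overlap. It was -0.01 for Ocln, whose groups overlapped, and 0.18 for Marveld2 and 0.57 for Tjp1, both without overlap. Tjp1, already at 231 to 249 CPM in uninduced cells, was itself not called with both hairpins (-0.15), while the sum was lower. Cldn1 differed by -0.34 with overlap. Ocln thus had the difference closest to 0, and Tjp3 and Cldn6 those farthest from it. With the Trim28 hairpin the difference was -1.25 for Tjp3, -0.79 for Cldn6, -0.65 for Cldn1, -0.38 for Cldn7 and 0.28 for Tjp1, each without overlap, and the remaining 4 members overlapped. For Tjp1 the margin was small, with -2.01 in the lowest Trim28 library and -2.02 in the highest control. Of 27 such differences 16 were without overlap. The share over all genes was not computed for this ratio, and the differences share groups and the same sum. The count is therefore no result about the members. An exact permutation test of 3 against 3 cannot give less than 0.1, so none of them can pass 0.05 by that test.

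**Figure D4:**
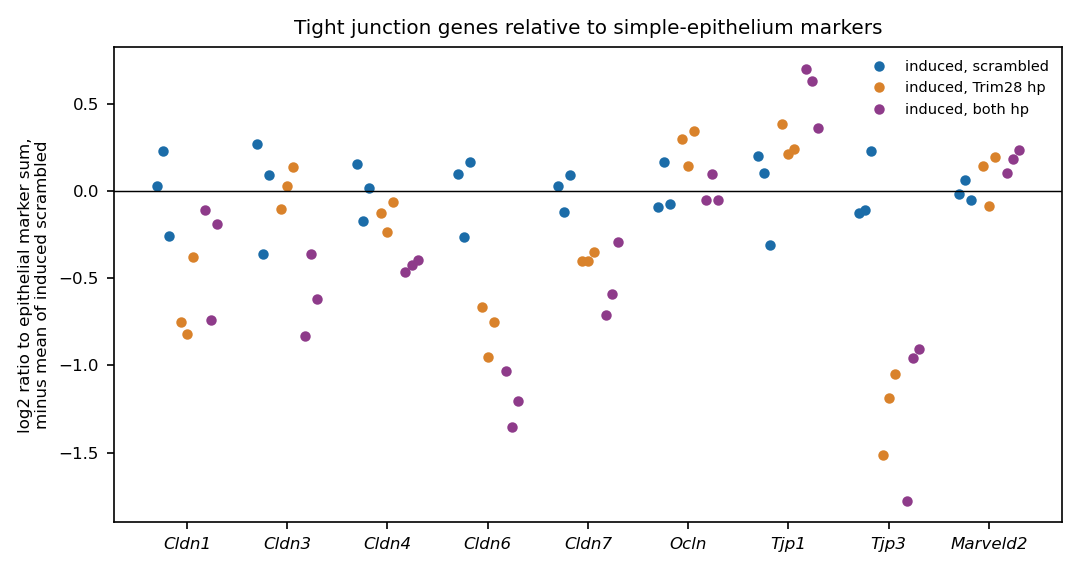
Log2 ratio of each member to the summed level of 5 simple-epithelium markers in each of the 9 induced libraries, minus the mean of the induced controls (hp, hairpin). Points are libraries. Tjp3, Cldn6, Cldn1, Cldn4 and Cldn7 lie below 0 in all 6 hairpin libraries, and Tjp1 lies above 0 in the same 6.

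Some neighbouring genes moved alike and others did not. Cldn9, 137 bases from Cldn6, rose with it on induction from 2 reads to 4.55 ± 0.279 CPM, but with the Trim28 hairpin it was at 5.72 ± 0.170 CPM (log2 fold change 0.34 ± 0.16, adjusted p = 0.152) while Cldn6 fell. The log2 ratio of Cldn6 to Cldn9 was 2.22 to 2.98 in the induced controls and 1.34 to 1.49 with the Trim28 hairpin, without overlap (difference -1.18, two-sided exact permutation p = 0.1, the smallest that 3 against 3 allows). On the other side of Cldn6, Tnfrsf12a rose with both hairpins (0.74 ± 0.087, adjusted p = 7.91e-06). The log2 ratio of Cldn3 to Cldn4 overlapped between groups (differences of 0.17 with the Trim28 hairpin and -0.18 with both, exact permutation p = 0.3 and 0.2), and Wbscr27, 2488 bases from Cldn4, was not called in either knockdown. Rad17, 193 bases from Marveld2, did not pass on induction (0.04 ± 0.12, adjusted p = 0.765) and fell with the Trim28 hairpin (-0.35 ± 0.12, adjusted p = 0.0386), where Marveld2 did not pass, and with both (-0.38 ± 0.12, adjusted p = 0.0188), where Marveld2 fell too. Near Ocln, Gtf2h2 rose on induction (0.65 ± 0.11, adjusted p = 4.45e-05) and fell with both hairpins (-0.28 ± 0.10, adjusted p = 0.0442). Naip1, 50100 bases from Ocln, was at 0.0216 CPM in uninduced cells and 5.41 CPM in the induced controls, and it fell with both hairpins (-1.41 ± 0.22, adjusted p = 9.08e-05), as Ocln did. Closer by, Elp5, 336 bases from Cldn7, was not called on induction or in either knockdown. Pip5k1c, 1695 bases from Tjp3, rose on induction (0.76 ± 0.087, adjusted p = 9.90e-07) and was not called in either knockdown. The row Wbscr25, which shares 40 bases with Cldn3, held 10 reads in all libraries. Apba3, which shares 40 bases with Tjp3, was at 28.8 CPM in uninduced cells and 33.2 to 35.1 CPM in the induced groups, and Tjp3 had 1 read in uninduced cells. The neighbours were looked up by position.

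Over the 9 induced libraries, a description in which the groups and libraries are shared by all genes, the members were compared in pattern. Pearson's r of log2 CPM was 0.98 between Cldn3 and Cldn4, 0.97 between Ocln and Marveld2 and 0.97 between Cldn4 and Cldn7, and 0.09 between Cldn1 and Tjp1. Among 12315 genes, the closest in pattern were Myh14 for Cldn4 (r = 0.990), Pdgfb for Cldn6 (0.994), Eif2ak4 for Cldn7 (0.994), Kremen1 for Cldn3 (0.992), Pcna for Cldn1 (0.987), Fam213a for Ocln (0.988), Slc7a3 for Marveld2 (0.989), Mdn1 for Tjp1 (0.993) and Eya2 for Tjp3 (0.997). Other junction genes were among the first 3 for Cldn6 (Lsr, 0.990) and Cldn7 (Crb3, 0.992), and the adherens junction cadherin Cdh1 was for Ocln (0.985).

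Wider lists of junction genes held genes of both directions. Over all genes tested 32.7% rose and 32.7% fell on induction, 13.1% and 11.8% with the Trim28 hairpin, and 18.1% and 18.5% with both. The counts of each list are to be read beside these shares. Genes silent before induction could pass the filter on low counts only through the induced groups, so counts and medians on induction describe the tested genes and are no further evidence. Of 18 other claudin rows 6 had enough reads to test, 1 of them listed as Cldn25 although its identifier is Cldnd1 in GENCODE M21. On induction 3 rose and 2 fell, with a median of 0.07 on the log2 scale. The fall of the Cldn25 row (-0.20 ± 0.066, adjusted p = 0.0143) was lost in 3 of 14 alternatives. Cldn9 and Cldn23 rose from 2 reads each, and Cldn19 fell by 2.70 on the log2 scale. Cldn12 fell with the Trim28 hairpin (-0.35 ± 0.092, adjusted p = 0.0102) and with both was not called (0.09 ± 0.090, adjusted p = 0.450). With both hairpins Cldn9 (-0.67 ± 0.18, adjusted p = 0.00767) and Cldn23 (-0.62 ± 0.18, adjusted p = 0.0119) fell, and the Cldn25 row rose (0.22 ± 0.066, adjusted p = 0.0169), a call lost in 6 of 14 alternatives.

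Of 14 other membrane proteins of junctions 13 were tested, and 8 rose and 3 fell on induction (median 0.94). Over all genes 32.7% rose and 32.7% fell. Angulins are the proteins that bring tricellulin to the corners where cells meet. Of the listed angulins, Ildr1 and Lsr fell with the Trim28 hairpin and Ildr2 did not. Ildr2 was at 13.2 to 15.1 CPM in the induced controls, 14.5 to 18.5 with the Trim28 hairpin and 14.7 to 16.6 with both. Ildr1 was at 14.7 to 17.9 CPM in the induced controls and 7.55 to 9.34 CPM with the Trim28 hairpin (-0.99 ± 0.13, adjusted p = 2.38e-05), and at 4.59 to 4.77 CPM with both. Lsr went from 22.1 to 29.3 CPM in the controls to 14.7 to 17.2 with the Trim28 hairpin (-0.63 ± 0.12, adjusted p = 0.00117). The log2 ratio of Marveld2 to Ildr1 was -1.05 to -0.94 in the induced controls and -0.04 to 0.13 with the Trim28 hairpin (difference 1.02, exact permutation p = 0.1). The junctional adhesion molecule Jam2 went the other way, from 23.0 to 29.6 CPM in the controls to 53.7 to 60.0 with the Trim28 hairpin (1.12 ± 0.089, adjusted p = 1.97e-07) and 66.1 to 68.1 with both (1.37 ± 0.089, adjusted p = 1.40e-08). In all, 3 fell and 1 rose with the Trim28 hairpin (median 0.01), and 6 fell and 2 rose with both (median -0.08). Over all genes 11.8% fell and 13.1% rose with the Trim28 hairpin, and 18.5% fell and 18.1% rose with both. The polarity protein Crb3 fell with both (-0.83 ± 0.12, adjusted p = 6.76e-05).

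Of 30 scaffold and polarity genes 12 rose and 11 fell on induction (median -0.06), where 32.7% of all genes rose and 32.7% fell. Cingulin (Cgn), which binds zonula occludens proteins, rose by 6.95 ± 0.26 on the log2 scale. With the Trim28 hairpin 9 rose and 1 fell (median 0.08), where 13.1% of all genes rose and 11.8% fell. With both hairpins Cgn (-1.0 ± 0.093, adjusted p = 7.09e-07) and Pard6b (-0.56 ± 0.093, adjusted p = 2.01e-04) were among 4 that fell, and 8 rose (median 0.01). Over all genes 18.5% fell and 18.1% rose.

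All 6 tested of 8 claudin partners rose on induction (median 6.97). Epcam, an adhesion protein that stabilises claudins, went from 4 reads to 67.9 to 93.0 CPM. With the Trim28 hairpin 2 of 6 fell, Epcam (-0.31 ± 0.11, adjusted p = 0.0454) and Spint1 (-0.33 ± 0.11, adjusted p = 0.0291). These calls were lost in 6 and 4 of 14 alternatives. Over all genes 11.8% fell with the Trim28 hairpin and 18.5% with both. With both hairpins 5 of 6 fell (median -0.75), among them Spint1, an inhibitor of the protease matriptase (-1.14 ± 0.11, adjusted p = 8.98e-07) and the gene of matriptase itself, St14 (-0.73 ± 0.091, adjusted p = 1.55e-05).

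Transcription and splicing factors of epithelia were mostly higher after induction and lower with both hairpins. Of 12 tested among 14, 10 rose and 1 fell on induction (median 6.14), 4 fell with the Trim28 hairpin (median -0.31) and 10 fell with both (median -1.14). Over all genes 32.7% rose and 32.7% fell on induction, 11.8% fell with the Trim28 hairpin and 18.5% with both. Klf5 was not called with both hairpins but rose with the replicate number as a block (0.50, adjusted p = 0.0299). Grhl2, which in the mouse activates Cldn4, was at 14.3 to 18.4 CPM in the induced controls, 14.8 to 17.1 with the Trim28 hairpin (-0.06 ± 0.13, adjusted p = 0.784) and 5.41 to 7.19 with both (-1.36 ± 0.14, adjusted p = 1.84e-06). Tfap2c fell with the Trim28 hairpin (-1.60 ± 0.23, adjusted p = 1.23e-04), and so did Trp63, a factor of stratified epithelia (-1.63 ± 0.31, adjusted p = 6.04e-04). Like Cldn1, which lies on the same chromosome with 464539 bases between them, Trp63 was read before induction, at 4.14 to 5.50 CPM, and did not pass on induction (-0.36 ± 0.24, adjusted p = 0.198). Leprel1 is nearer to Cldn1 on that side, at 250857 bases. It was not called with the Trim28 hairpin (-0.24 ± 0.16, adjusted p = 0.313) and fell with both (-0.56 ± 0.16, adjusted p = 0.0142). On the other side of Cldn1, Il1rap was not called with the Trim28 hairpin and rose with both (0.29 ± 0.10, adjusted p = 0.0308).

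Most repressors of the epithelial programme fell on induction, and some rose with both hairpins. Of 7 tested among 8, 5 fell on induction (median -0.75), where 32.7% of all genes fell. Zeb1 went from 185 to 200.5 CPM to 104 to 126, and Zeb2 from 92.7 to 106 CPM to 45.6 to 50.6. With the Trim28 hairpin Snai2 (-0.60 ± 0.11, adjusted p = 9.61e-04) and Zeb1 (-0.24 ± 0.074, adjusted p = 0.0231, lost in 3 of 14 alternatives) fell, and Twist1 rose (0.31 ± 0.086, adjusted p = 0.0137, lost in 4 of 14). With both hairpins 3 rose against the induced controls (median 0.13), Twist1 (0.63 ± 0.085, adjusted p = 3.16e-05), Twist2 (1.02 ± 0.16, adjusted p = 1.19e-04) and Zeb2 (0.34 ± 0.096, adjusted p = 0.0109, lost in 2 of 14). Over all genes 18.1% rose. Against the Trim28 hairpin alone 10% of all genes rose with both hairpins. In that comparison 5 of the 7 tested repressors rose (median 0.35), among them Zeb1 (0.38 ± 0.074, adjusted p = 0.00186). The calls of Zeb2, Twist1 and Snai2 there were lost in 3, 2 and 2 of 14 alternatives.

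**Figure D5:**
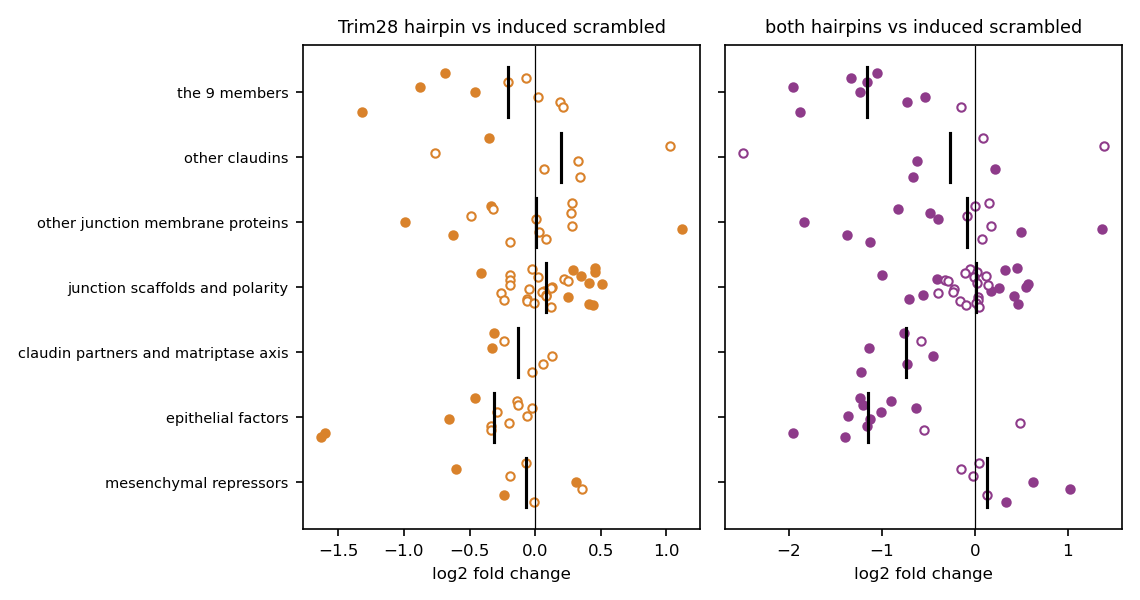
Log2 fold change of the 9 members and of the tested genes of 6 wider lists, with the Trim28 hairpin (left) and both hairpins (right) against the induced controls. Points are genes, filled where the adjusted p was under 0.05, and bars are list medians. The members' median is -0.21 on the left and -1.16 on the right, beside -1.14 for the epithelial factors on the right.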

How the data were processed

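The values are whole-number read counts per gene as the authors deposited them, for 24207 genes in 12 libraries. Per the submitters' processing notes the tools were TopHat2 2.0.12, Bowtie 1.1 and HTSeq. For the genome build, it is not given in the sources used. Of the identifiers, 23882 were found in GENCODE M21 (GRCm38), 23856 of them at an overlapping place. Strand use in counting is not stated, so reads of overlapping genes cannot be told apart, nor can vector reads of the 4 factors from native ones. Groups came from the sample titles. Nothing says that replicates are separate cultures, so the p-values speak to the spread among these libraries alone, and this spread may be technical. Total counts of 11906701 to 19191649 put 3 reads in a library at 0.150 to 0.243 CPM.

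Counts were fitted with edgeR 4.0.16 in R 4.3.3 (TMM factors, quasi-likelihood F-test, 1 term per group, all 12 libraries) on 14520 genes kept by filterByExpr (minimum count 10, total 15). A gene rose or fell at a Benjamini-Hochberg adjusted p under 0.05 over these genes. SEs come from the fitted weights of that model. The fit was tested on simulated data. CPM use the TMM factors, and CPM per kb the union of exons in GENCODE M21, which includes UTRs. Per-library ratios were compared with exact permutation tests. Genes with 0 reads in a group are given against a floor of 3 reads over the group, and those with 1 to 3 reads as count ratios with 95% intervals. Claudin shares leave out the row listed as Cldn25, whose identifier is Cldnd1 in GENCODE M21. Promoters are RefSeq windows on GRCm38.p6, and motifs and the ratios to marker sums and between pairs (27 and 36 differences) were chosen with the values known.

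The members and lists were chosen with earlier results of these data known. Members are always named. From each list the text names up to 2 genes with the smallest p per direction and comparison, which may be followed through the others, and the 3 genes most like a member in pattern by Pearson's r over the induced libraries. Neighbours were named by position, and Ildr2 was named as the remaining angulin of its list. Some genes that this rule names are not reported here. Replicate numbers were checked for pairing by the correlation of deviations from group means. Between the induced controls and the double group the 3 same-numbered pairs were at 0.141 to 0.31. Between the induced controls and the Trim28 group they were at 0.061 to 0.158, and between the Trim28 and double groups at 0.032 to 0.191. Same-numbered pairs among induced libraries were thus all positive, while induced libraries of different number ran from -0.208 to 0.0861. Every comparison with uninduced cells held a negative same-numbered pair. Over all groups the highest value, 0.386, was between an uninduced library and an induced control of different number. The labels state no pairing, and these values cannot settle it. Alternatives were DESeq2 1.42.0, RLE and upper quartile factors, library totals, no filter, a minimum count of 30, the 2 groups compared alone, a replicate block and leaving out each library.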

Additional observations from a re-analysis of the deposited data

How the results depend on the processing

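The members' directions held in every comparison and alternative in which they were called, and 0 values reversed. Of 196 values of single genes, 23 lost and 12 gained a call in at least 1 alternative, and 17 values called neither way changed sign. The count of genes called between both hairpins and the Trim28 hairpin, 3154, was 4849 with the 2 groups alone, and it lay between 1829 and 2843 when single libraries were left out, with 1829 without replicate 2 of the Trim28 group, 2063 without replicate 3 of it, and 1853 without replicate 1 of the double group. The cause was not tested. With the Trim28 hairpin 4 members were called, and 3 to 6 over the alternatives. The other 164 counts, of genes and of members, stayed within 1.5 times. Scaling to library totals moved the median of all genes on induction from -0.017 to 0.11 on the log2 scale.

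Same-numbered libraries of the induced groups all had a positive r, highest between the induced controls and the double group. In that comparison the block changed no member's call (5537 genes called, 5322 without it). Every comparison with uninduced cells held a negative same-numbered pair. Over all groups r ran from -0.224 to 0.31 for same-numbered libraries and from -0.273 to 0.386 for the others. Nearest to their own number were 6 of 12 libraries. With the replicate block 9572 genes were called on induction, 3864 with the Trim28 hairpin, with Tjp1 among them (adjusted p = 0.0393), and 3399 between both hairpins and the Trim28 hairpin, with Tjp3 among them (0.0206). Depth limits the uninduced values of 7 members, which rest on 0 to 7 reads.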
